A study of Mus musculus with 9 samples.

Results

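This account covers 9 mouse genes that regulate or build cartilage, read from 24 probe sets of an expression array. They were taken by symbol from a list of 10: the regulators Sox9, Sox5, Sox6 and Runx2, and the non-collagen matrix genes Acan, Hapln1, Matn1, Matn2, Matn4 and Chad. The platform annotation used here paired no probe set with the symbol Runx2, so Runx2 was not analysed here. The 9 genes stand among 18193 genes with a probe set of their own symbol, and their 24 probe sets among 45037 probe sets in all.

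The arrays measured total RNA of mouse embryonic fibroblasts (MEFs), which are cultures grown from minced embryos and hold mainly fibroblasts. All embryos were female and taken at E12.5, in mid-gestation. The WT line was wild type for Oga, the Het line carried 1 deleted copy and the KO line 0 working copies. The product of Oga, O-GlcNAcase, strips a single sugar (O-GlcNAc) from serines and threonines of nuclear and cytoplasmic proteins. Per the design text, the deletion came from a floxed Oga allele in mice of the C57B1/6 background crossed with MMTV-cre females (B6129-Tgn(MMTV-Cre)1Mam), and heterozygous offspring were then intercrossed. MMTV-Cre is driven by the mouse mammary tumour virus promoter. The labels do not say whether any of the 3 lines carried the Cre transgene. Each genotype is 1 line, by the code in its labels, measured on 3 arrays that the design text calls technical replicates. Every p-value below therefore measures only the spread between arrays of a line, and genotype cannot be told apart from any other difference between the 3 lines.

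Sox9 encodes the transcription factor that is required for the formation of cartilage and switches on its matrix genes. SOX5 and SOX6, related factors that lack an activating domain of their own, work beside SOX9 on the same genes. Cartilage matrix is a network of collagens filled with aggrecan, a proteoglycan that holds water. Aggrecan is held on hyaluronan by the link protein that Hapln1 encodes, and matrilins are adaptor proteins that join collagens and proteoglycans. In the mid-gestation embryo, cartilage starts as condensations of mesenchyme, a tissue that also yields the fibroblasts of such cultures.

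The upstream sequences of Matn4, the matrix gene that fell with Sox9, and of Acan, a textbook SOX9 target, are shown with that of Matn1, a matrilin gene that stayed at low values in every line. Each run holds the 250 bases before a start of the gene in RefSeq, assembly GRCm38.p6, on the gene's strand. They lie at chr2:164405161-164405410 on the minus strand, chr7:79052976-79053225 on the plus strand and chr4:130944135-130944384 on the plus strand. Capitals mark a match to a searched motif.
Matn4: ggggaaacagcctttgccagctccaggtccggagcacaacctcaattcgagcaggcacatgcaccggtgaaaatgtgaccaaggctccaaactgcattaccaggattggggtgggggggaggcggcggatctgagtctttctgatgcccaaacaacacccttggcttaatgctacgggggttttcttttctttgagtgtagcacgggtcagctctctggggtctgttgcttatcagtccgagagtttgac
Acan: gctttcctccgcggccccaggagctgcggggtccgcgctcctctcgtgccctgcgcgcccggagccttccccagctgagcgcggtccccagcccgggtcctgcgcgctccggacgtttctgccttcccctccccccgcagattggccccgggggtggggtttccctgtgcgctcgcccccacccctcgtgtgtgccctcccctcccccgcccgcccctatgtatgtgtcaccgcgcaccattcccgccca
Matn1: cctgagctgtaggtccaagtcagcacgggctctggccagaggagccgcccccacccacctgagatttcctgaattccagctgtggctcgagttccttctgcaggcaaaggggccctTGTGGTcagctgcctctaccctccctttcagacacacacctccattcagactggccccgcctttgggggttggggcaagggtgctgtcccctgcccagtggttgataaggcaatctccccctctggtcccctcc
The motifs searched on both strands were ACAAAG and ACAATG, short forms of the site that SOX proteins bind, and TGTGGT, the core of the RUNX site. The Matn4 and Acan windows held none of the 3, and the Matn1 window held TGTGGT at 134 bases before the start. Of 32851 promoter windows of the same length in the table, 25.2% held at least 1 of the SOX motifs and 14.0% held TGTGGT. Promoter sequences were listed for 7 of the 9 genes. Across these 9 genes and Runx2, 6 of 14 listed windows held a SOX motif and 5 held TGTGGT, and overlaps between motifs were counted under each. Every window with a SOX motif belonged to Sox5 or Sox6, and none to a matrix gene. Sox6 was listed with several windows, so the windows do not count genes. These matches describe letters in a window only.

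Values are the deposited values on a log2 scale, so a difference of 1 is 2-fold. A probe set was called, and is said to have risen or fallen, when its Benjamini-Hochberg adjusted p in limma was below 0.05 over all 45037 probe sets and its difference reached 2-fold. Each gene is read first from its most abundant probe set. A probe set is termed low when its mean over all 9 arrays lay under 6.22, the 40th percentile of all probe sets. By this measure 7 of the 9 genes were above the percentile, and Hapln1 and Matn1 were low. Of the 24 probe sets 13 were above it. Oga, the check of the labels, averaged 11.92 on WT, 11.16 on Het and 6.06 on KO arrays. Arrays of the same line correlated at 0.9973 to 0.9989 and arrays of different lines at 0.9892 to 0.9957. All 14 fibroblast markers examined were above the low-value percentile.

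Sox9 fell in the KO line. At its most abundant probe set, 1451538_at, it read 8.50, 8.49 and 8.60 on the WT arrays, 8.01, 8.17 and 8.29 on the Het arrays and 7.59, 7.62 and 7.35 on the KO arrays. All KO arrays lay below all Het arrays, which in turn lay below all WT arrays. The KO line was 2.01-fold below WT, a log2 difference of -1.01 ± 0.087 (SE, 3 arrays in each line, adjusted p = 9.89e-06 in limma). In RNA from a whole culture, fewer cells that express a gene and less of its RNA per cell cannot be told apart. Markers of macrophages, cells that a fibroblast culture can also hold, moved the same way. Between WT and KO, where 1.91% of all genes were called lower, 15 of 16 of these markers fell, with a median log2 difference of -1.76. Their part in the Sox9 result was not tested.

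The second Sox9 probe set, 1424950_at, gave a fall of similar size. It read 8.39, 8.34 and 8.28 in WT, 7.92, 7.92 and 8.13 in Het and 7.34, 7.13 and 7.13 in KO arrays. Its KO minus WT difference was -1.13 ± 0.077 (limma adjusted p = 1.53e-06), and it was called in all of the 15 alternative analyses run on probe sets at the 2-fold minimum. The first probe set sits at the 2-fold limit and was called in 11 of those 15. It was short of 2-fold with quantile normalization (-0.957), with median centring (-0.992), without WT replicate 3 (-0.973) and without KO replicate 3 (-0.922). The third Sox9 probe set, 1433889_at, was low, between 4.46 and 5.19 on all arrays. It was lower in KO than in WT by 0.48 with an adjusted p of 0.00171 in limma, short of 2-fold. The mean of all 3 probe sets gave -0.874, also short of 2-fold.

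The Het line stood between WT and KO for Sox9. Against WT its log2 difference was -0.37 ± 0.087 at the first probe set and -0.35 ± 0.077 at the second (limma adjusted p = 0.0121 and 0.00967), neither at 2-fold. KO was below Het by 0.63 at the first and 0.79 at the second (limma adjusted p = 3.65e-04 and 3.57e-05). On each of the 3 Sox9 probe sets the arrays of the 3 lines did not overlap.

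Sox5 differed less than Sox9 and was not called in any comparison of the lines. Its most abundant probe set, 1432189_a_at, read 7.78, 7.68 and 7.62 in WT, 7.48, 7.52 and 7.57 in Het and 7.45, 7.35 and 7.43 in KO arrays. The lines did not overlap, but the KO minus WT difference was only -0.28 ± 0.056 (limma adjusted p = 0.00343). The probe set 1455535_at was also lower than WT, by 0.41 in Het and 0.31 in KO arrays (limma adjusted p = 0.00925 and 0.0234), without an order between Het and KO, whose arrays overlapped. The remaining 5 Sox5 probe sets lay between -0.15 and 0.15 in KO minus WT with overlapping arrays, and 4 of them were low.

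Sox6 went the other way, higher in both lines that lack Oga copies, and was not called in any of the 3 comparisons. Its most abundant probe set, 1434918_at, read 6.93, 6.96 and 6.95 in WT, 7.10, 7.33 and 7.26 in Het and 7.20, 7.17 and 7.27 in KO arrays. All WT arrays were below all Het and all KO arrays, while Het and KO overlapped. The difference from WT was 0.29 ± 0.062 in Het and 0.27 ± 0.062 in KO (limma adjusted p = 0.00851 and 0.00824). The probe set 1447655_x_at gave 0.47 and 0.45 (limma adjusted p = 0.00211 and 0.00136). The x in its name is the Affymetrix mark for probes that can also match other transcripts. The probe set 1427677_a_at gave 0.31 in both lines with overlapping arrays (limma adjusted p = 0.101 in Het and 0.0887 in KO), and the fourth was low.

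Among these partners, then, the KO minus WT difference was -1.01 for Sox9, -0.28 for Sox5 and 0.27 for Sox6 at the most abundant probe sets. These are differences between lines and not levels, since values of different probe sets are not comparable as levels.

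**Figure D1:**
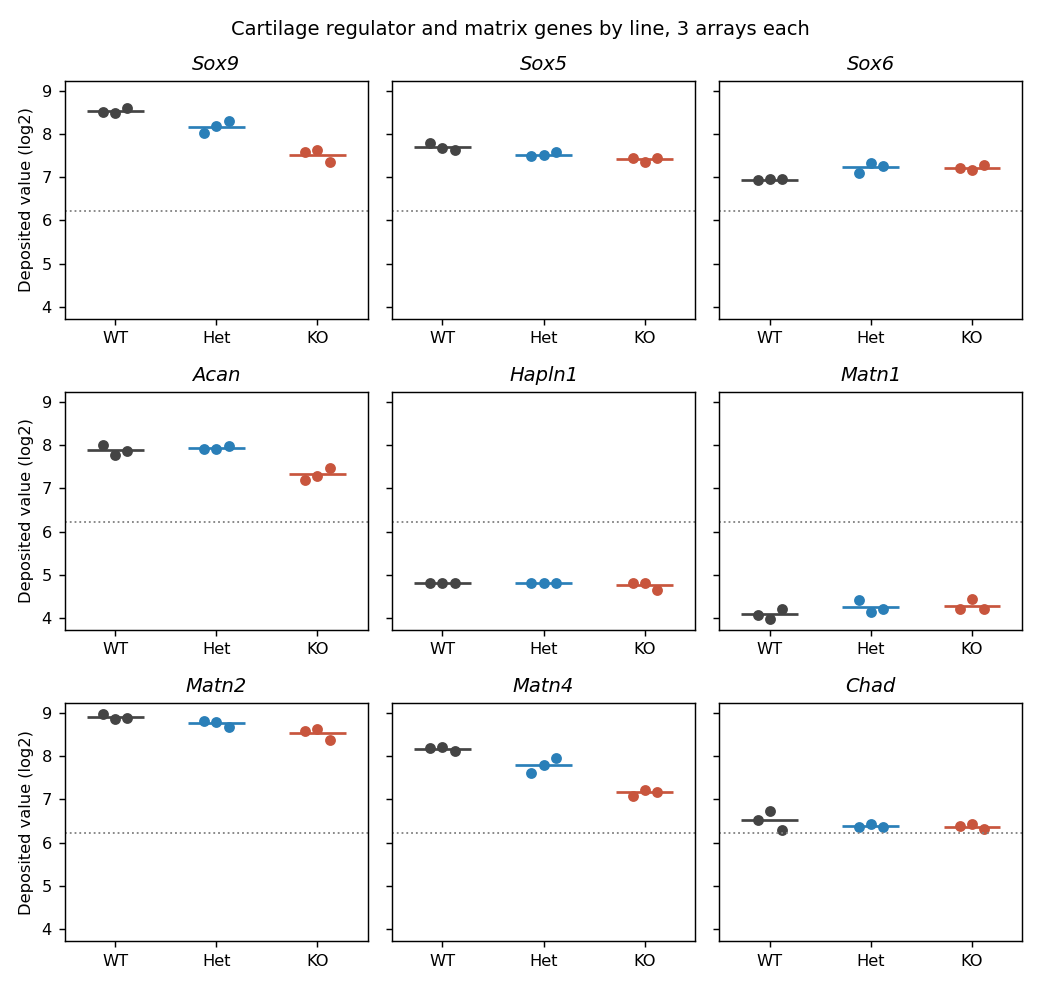
Deposited log2 values of the 9 genes at their most abundant probe sets. Each point is 1 array, each bar the mean of 3 arrays of a line, and the dotted line is the low-value percentile at 6.22. Sox9 and Matn4 step down from WT over Het to KO, Acan is lower in KO arrays alone, and Hapln1 and Matn1 lie under the dotted line on every array.

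Acan, which encodes aggrecan, was lower in the KO line and short of a 2-fold change. Its 1 probe set, 1449827_at, read 8.01, 7.77 and 7.86 in WT, 7.91, 7.91 and 7.98 in Het and 7.19, 7.29 and 7.47 in KO arrays. All KO arrays lay below all WT and Het arrays, which overlapped with each other. The KO line was 1.48-fold below WT (log2 difference -0.56 ± 0.079, limma adjusted p = 3.41e-04) and 1.54-fold below Het (-0.62 ± 0.079, limma adjusted p = 2.26e-04). Het minus WT was 0.06 ± 0.079 (limma adjusted p = 0.653). Over the 16 alternative analyses of single genes the KO minus WT value ran from -0.638 to -0.499.

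Hapln1, whose link protein fastens aggrecan to hyaluronan, gave low values on every array. Its 4 probe sets ran from 3.60 to 4.82, all under 6.22. The most abundant, 1421633_a_at, read 4.80 on each WT array and between 4.66 and 4.82 on the others. None of the 4 passed the adjusted p threshold in any comparison, and at such values the arrays do not settle whether Hapln1 RNA differed.

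Matn4, which encodes matrilin-4, fell in the KO line by nearly the same amount as Sox9. Its 1 probe set, 1418464_at, read 8.19, 8.21 and 8.11 in WT, 7.61, 7.80 and 7.96 in Het and 7.08, 7.22 and 7.17 in KO arrays. The arrays of the 3 lines did not overlap. KO was 2.02-fold below WT, a log2 difference of -1.01 ± 0.083 (limma adjusted p = 6.49e-06). Het was below WT by 0.38 (limma adjusted p = 0.0088) and KO below Het by 0.63 (limma adjusted p = 2.63e-04), both short of 2-fold. This fall is also at the limit: it was short of 2-fold with quantile normalization (-0.968), with median centring (-0.997), without WT replicate 2 (-0.993) and without KO replicate 1 (-0.973).

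Matn2, a matrilin gene expressed in many connective tissues beyond cartilage, was not called. At 1419442_at it read 8.97, 8.85 and 8.88 in WT, 8.82, 8.78 and 8.68 in Het and 8.57, 8.63 and 8.38 in KO arrays. The lines did not overlap, and KO minus WT was -0.37 ± 0.072 (limma adjusted p = 0.00266). The other Matn2 probe set, 1455978_a_at, gave 0.08 ± 0.12 with overlapping arrays (limma adjusted p = 0.677), so the direction depends on the probe set. Matn1, the matrilin most restricted to cartilage, was low, between 3.98 and 4.45 on all arrays, and its lines overlapped. Chad encodes chondroadherin, a leucine-rich matrix protein that cartilage cells attach to. It read 6.52, 6.73 and 6.30 in WT and between 6.31 and 6.43 on the Het and KO arrays, with a KO minus WT difference of -0.14 ± 0.092 (limma adjusted p = 0.294).

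Counted over the 9 genes, 2 fell between WT and KO and the other 7 were not called. Of all 18193 genes 1.91% were called lower and 0.753% higher in that comparison, and 2.66% in either direction. With the adjusted p alone, 5 of the 9 were lower and 1 higher, where 20.7% of all genes were lower, 14.1% higher and 34.8% passed in all. Arrays of the KO and WT lines did not overlap in 6 of the 9 genes, and in 48.7% of all genes. By probe set, 3 of 24 fell, where 1.21% of all probe sets were called lower and 1.86% in either direction. At the adjusted p alone 10 of 24 passed, beside 28.9% of all. The median KO minus WT difference of the 9 genes was -0.28, beside -0.018 over all genes.

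No member was called at 2-fold in the other comparisons. Between Het and WT, limma called 0 of 9 genes. At an unadjusted p below 0.05 there were 4, and 3 passed the adjusted p alone (Sox9 and Matn4 lower, Sox6 higher). Of all genes 0.198% were called and 19.8% passed the adjusted p there. Of the 24 probe sets 0 were called by limma (9 at an unadjusted p below 0.05) and 6 passed the adjusted p, beside 0.246% and 21.0% of all probe sets. Between KO and Het limma also called 0 of 9, with 4 at an unadjusted p below 0.05, and the same number passed the adjusted p alone: Sox9, Acan, Matn2 and Matn4, all lower in KO. Over all genes these shares were 1.5% and 32.1%. Of the 24 probe sets 0 were called by limma (7 at an unadjusted p below 0.05) and 5 passed the adjusted p, beside 1.05% and 26.6% of all probe sets. At a 1.5-fold minimum, 3 of the 9 passed between KO and Het (Sox9, Acan and Matn4), where 5.2% of all genes did, and 4 of the 24 probe sets passed, where 4.12% of all did. Counts at an unadjusted p, here and below, have no share of all genes or probe sets beside them. That share is at least the one that passed the adjusted p, since adjustment never lowers a p-value. Since the 3 comparisons share arrays, their counts are not independent of each other.

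The Het mean lay between a higher WT and a lower KO mean in 5 of the 9 genes: Sox9, Sox5, Matn2, Matn4 and Chad. That order held in 23.8% of all genes. The steps of Chad (-0.13 from WT to Het and -0.01 from Het to KO) were within the spread of its arrays, and the second step of Sox5 (-0.11) had an adjusted p of 0.186 in limma.

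**Figure D2:**
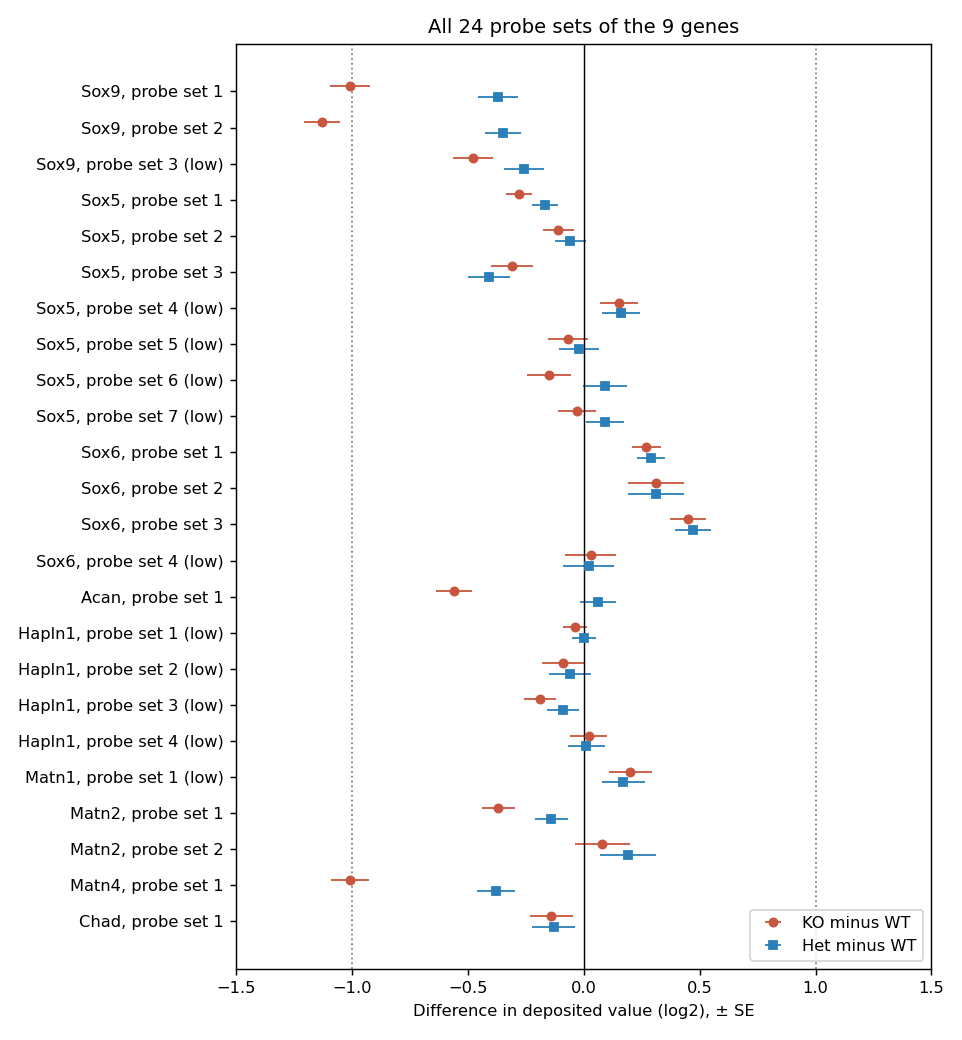
Log2 difference from WT, with its SE, of each of the 24 probe sets in the KO line (circles) and the Het line (squares). Probe sets are numbered by falling mean within a gene, those marked low have a mean under 6.22, and dotted lines mark 2-fold. The first and second Sox9 probe sets and Matn4 reach the left dotted line in KO, and none reaches it in Het.

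Genes with a like pattern were sought for the 3 members that were above the low-value percentile and spanned at least 0.5 between line means. The measure was Pearson's r over the 9 arrays, which come from only 3 lines, among 12377 genes. Closest to Sox9 were Rassf2 (r = 0.992), Cd48, a surface protein of blood cells (0.989), and Serpinb1a, a protease inhibitor (0.989). Rassf2 means ran from 7.59 in WT over 7.09 in Het to 6.05 in KO, and Cd48 means from 7.56 over 6.81 to 5.88. Closest to Matn4 were Ttl, the tubulin-tyrosine ligase gene (0.995), Tor2a (0.994) and Bcl3 (0.992). Closest to Acan were Adam33 (0.987), Zfp251 (0.981) and Ssbp3 (0.981). Pearson's r does not measure the size of a difference. Ttl means were 10.19 in WT, 10.05 in Het and 9.83 in KO, beside 8.17, 7.79 and 7.16 for Matn4. Adam33 means were 8.47, 8.48 and 8.3, beside 7.88, 7.94 and 7.32 for Acan. The closest matches of Matn4 and Acan thus differed less between lines than these members. At least 0.98 was reached by 40 genes for Sox9, 65 for Matn4 and 4 for Acan. With 3 lines, many genes share such an order.

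Among the cartilage collagens, the fibrils and fibril-bound chains that aggrecan is packed into, 2 genes differed more than any of the regulators. Of 8 measured, 2 fell in the KO line, both chains of collagen IX, which coats cartilage fibrils. Over all genes 1.91% were called lower between KO and WT. Col9a1 read 9.29, 9.36 and 9.27 in WT, 8.35, 8.36 and 8.35 in Het and 6.62, 6.24 and 6.52 in KO arrays, a KO minus WT difference of -2.84 ± 0.083 (limma adjusted p = 4.96e-09). Its other probe set gave -0.88, short of 2-fold. Col9a3 fell by 1.87 (SE 0.052, limma adjusted p = 3.69e-09). Both also fell between Het and KO, Col9a1 by 1.89 and Col9a3 by 1.07, the latter short of 2-fold as the mean of its probe sets (-0.602).

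The collagens that make up the fibrils were not called. Col2a1, the main collagen of cartilage, averaged 11.35 on WT, 11.35 on Het and 11.18 on KO arrays, a KO minus WT difference of -0.18 ± 0.055 (limma adjusted p = 0.0334). The third collagen IX gene, Col9a2, was low at 5.57, 5.48 and 5.41. The 6 collagen genes not called lay between -0.22 (Col11a2) and 0.19 (Col27a1) in KO minus WT. Over the 8 collagen genes the median was -0.17, beside -0.018 over all genes.

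Of 20 other cartilage matrix genes, 2 fell in the KO line, where 1.91% of all genes were called lower. The median of these 20 was -0.21, beside -0.018 over all genes. Over the 13 of them above the low-value percentile it was -0.05. Fmod, which encodes the collagen-binding proteoglycan fibromodulin, fell by 1.83 (SE 0.047, limma adjusted p = 2.25e-09), and its 6 probe sets lay between -1.83 and -1.52. Comp, the cartilage oligomeric matrix protein, read 7.55, 7.79 and 7.81 in WT, 6.69, 6.66 and 6.69 in Het and 6.07, 6.27 and 6.29 in KO arrays. It fell by 1.51 in KO (SE 0.080, limma adjusted p = 2.57e-07). It also fell in Het against WT by 1.04 (limma adjusted p = 2.57e-05), a call lost without WT replicate 2 (-0.999) or WT replicate 3 (-0.989). The KO mean of Comp, 6.21, lies just under the low-value percentile, so the size of its fall holds for the deposited values only. Matn3, the other member of the matrilin family, averaged 8.24 on WT, 8.0 on Het and 8.23 on KO arrays. Thus of the 4 matrilin genes 1, Matn4, was called between KO and WT.

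Of 31 measured signals and further regulators of cartilage, 1 fell in the KO line: Fgf18, a growth factor of cartilage and bone. It fell by 1.13 against WT (SE 0.069, limma adjusted p = 7.05e-07) and by 1.20 against Het. Over all genes 1.91% were called lower between KO and WT, and 2.66% in either direction. Fgf18 read 9.97 in WT and 10.03 in Het, so its difference lay between KO and the other 2 lines, as for Acan. The list's median was -0.03. Of 22 bone regulator and bone matrix genes 1 fell, Phex, an endopeptidase gene of bone cells, at 7.20 in WT, 6.65 in Het and 4.62 in KO (log2 difference -2.59 ± 0.11, limma adjusted p = 5.51e-08). Its mean over all arrays is low, its KO arrays (4.41 to 4.92) lie under the low-value percentile, and its other probe set, also low, gave 0.16. The size of this difference therefore holds for the deposited values of 1 probe set only. Among the genes of the pathway lists not called at their most abundant probe set, 3 were called at another. Tnfrsf11b, a decoy receptor that limits bone resorption, rose by 1.35 at 1 probe set (limma adjusted p = 5.96e-06), beside 0.18 at its most abundant. Trps1, a transcriptional repressor of the growth plate, fell by 1.04 at 1 (limma adjusted p = 1.86e-05), beside -0.55. Vcan, the matrix proteoglycan versican, fell by 1.09 at 1 (limma adjusted p = 5.64e-07), beside -0.62. Cbfb, the partner subunit of RUNX proteins, was lower in KO by 0.36 (limma adjusted p = 2.53e-04) and was not called.

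Genes that make and sulfate the chondroitin chains of aggrecan held no call. Between KO and WT limma called 0 of 25, with 19 at an unadjusted p below 0.05, and 10 higher and 5 lower at the adjusted p alone. Of all genes 14.1% were higher and 20.7% lower at the adjusted p alone. The median was 0.10. The largest differences were in Chst15 (0.77 ± 0.045) and Chst12 (0.68 ± 0.064), which encode chondroitin sulfotransferases (limma adjusted p = 4.70e-07 and 2.02e-05). Of 14 aggrecan-cutting proteases and inhibitors, Mmp13 fell by 1.55 and Mmp3 fell by 1.23, while Mmp9 rose by 1.03 (limma adjusted p of at most 3.01e-06). Over all genes 1.91% were called lower and 0.753% higher. The rise of Mmp9 was short of 2-fold without WT replicate 1 (0.954) and as the mean of its probe sets (0.998). The KO means of Mmp13 (4.72) and Mmp3 (6.21) lie under the low-value percentile. The aggrecanase genes Adamts4 and Adamts5 were higher in KO by 0.26 and 0.31 and were not called.

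**Figure D3:**
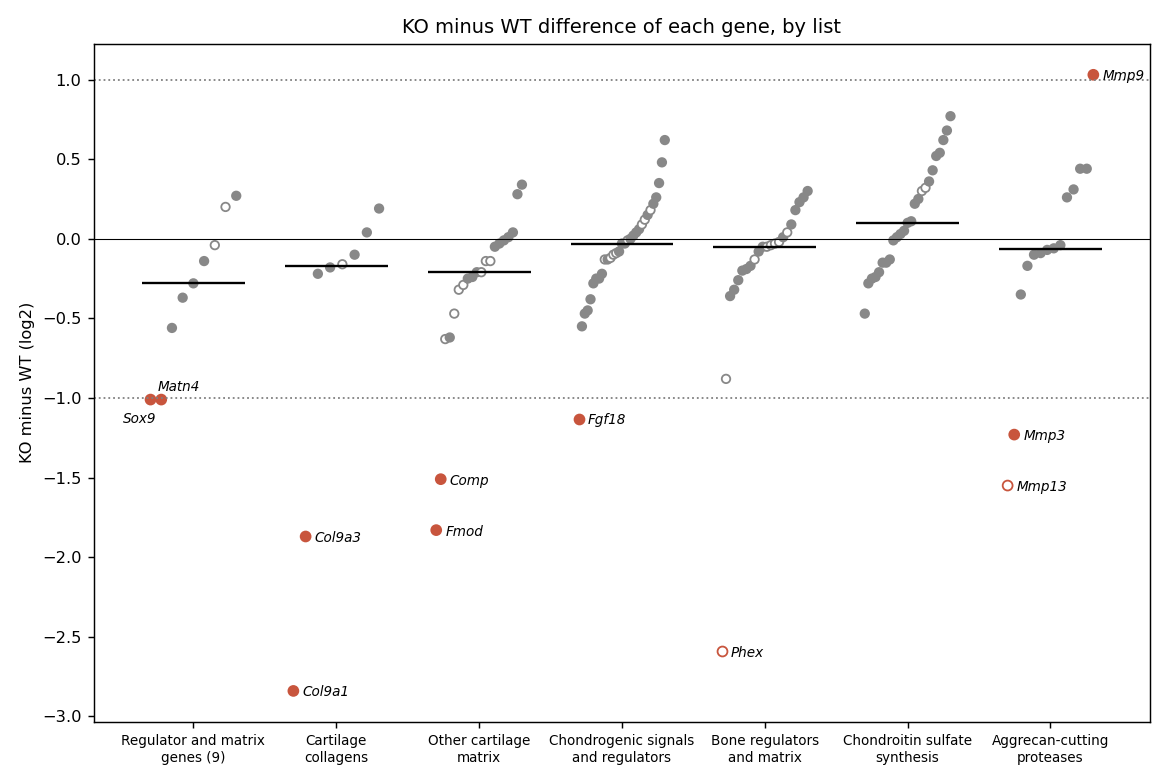
KO minus WT log2 difference of each gene at its most abundant probe set, by list. Red points were called, grey points were not, open points have a mean under the low-value percentile, black bars are list medians and dotted lines mark 2-fold. Col9a1, Col9a3 and Fmod lie furthest below 0 among the filled points, Phex is an open point with KO values under the percentile, and Sox9 and Matn4 lie at the lower dotted line.

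Markers of other cell types were read beside these results. Of 12 chondrocyte markers, which include the members Acan, Hapln1 and Matn1, 7 were above the low-value percentile, and Hapln1, Matn1, Col9a2, Cnmd and Snorc were low. Between WT and KO 3 of the 12 fell (Col9a1, Col9a3 and Comp), where 1.91% of all genes were called lower. The median difference was -0.20 over the 12 and -0.56 over the 7, while Col2a1 and Matn3 differed by -0.18 and -0.01. The mean log2 value of the 7, which those 3 falls enter in full, ran from 8.60 to 8.61 on WT, 8.17 to 8.23 on Het and 7.55 to 7.62 on KO arrays. That of 16 macrophage markers ran from 11.22 to 11.25 on WT, 10.85 to 10.93 on Het and 9.47 to 9.55 on KO arrays. Lyz2, the lysozyme gene, read 13.77, 13.53 and 11.88, and C1qa, a complement gene, 12.57, 12.39 and 10.79. The chondrocyte and macrophage means thus both fell in the same order of lines as Sox9 and Matn4. That order held in 23.8% of all genes.

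Skeletal muscle markers moved the other way, and 7 of 14 rose between WT and KO. The mean over the 10 above the percentile ran from 7.23 to 7.27 on WT, 7.83 to 7.98 on Het and 8.32 to 8.40 on KO arrays. Of 6 osteoblast markers 3 were above the percentile. Of 14 fibroblast markers 1 fell, and the median of the 14 was -0.08. The 1 was Pdgfra, a receptor of mesenchymal cells, which fell by 2.55 (limma adjusted p = 6.01e-09). At the adjusted p alone 6 of the 14 were lower and 0 higher, where 20.7% of all genes were lower and 14.1% higher. Dcn (-0.93) and Col6a1 (-0.91) were just short of 2-fold. Of 8 tendon markers 1 fell (Fmod) and 1 rose (Egr2). Of 7 epithelial markers 2 rose (Krt18 and Krt19), and of 6 neural and glial markers 1 fell (Gfap). The other neural and glial markers did not follow Gfap: at the adjusted p alone 3 of the 6 were higher and 1 lower, with a median of 0.25. Limma called 0 of 7 endothelial markers (3 at an unadjusted p below 0.05), and at the adjusted p alone 2 were higher and 0 lower. Emcn, low by its mean over all arrays, was just short of 2-fold at 0.99 (limma adjusted p = 7.52e-07). Of all genes 1.91% were called lower and 0.753% higher. The part of any of these shifts in the values of the cartilage genes was not tested.

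**Figure D4:**
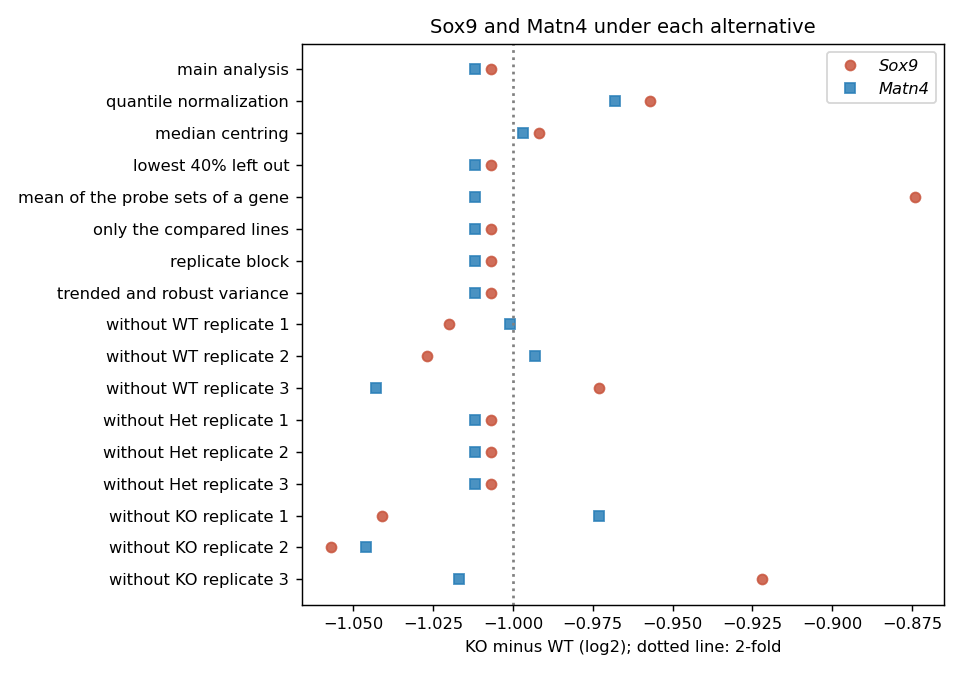
KO minus WT log2 difference of Sox9 (circles) and Matn4 (squares) in the main analysis and 16 alternatives, at the most abundant probe set except where a gene's probe sets were averaged, with 2-fold dotted. Values run from -1.057 to -0.922 for Sox9, or -0.874 as the mean of its 3 probe sets, and from -1.046 to -0.968 for Matn4, on both sides of the dotted line and below 0 throughout.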

How the data were processed

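Total RNA of 3 MEF lines was measured on 9 arrays, 3 per line. The authors deposited 1 table of log2 values for 45101 probe sets, and their range (3.25 to 15.1) is the basis for the log scale. GCOS and Partek are named in the submitters' processing notes. The background correction and normalization behind the values are not given in those notes. The values were used as deposited, with array medians of 6.87 to 6.95. The 64 control probe sets were left out. Symbols came from the platform annotation: 1 symbol stood at 34945 probe sets, several at 932 and none at 9160, while 34741 had an Entrez identifier in RefSeq (GRCm38.p6).

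Lines were compared with limma 3.58.1 (lmFit, eBayes) in R 4.3.3, with all 9 arrays and 3 lines in 1 model and Benjamini-Hochberg adjustment over 45037 probe sets. No filter on low values was used. The model was tested on simulated arrays with independent noise and added shifts, which does not bear on the limit of 1 line per genotype. Alternatives were quantile normalization, median centring, the lowest 40% left out, the mean of a gene's probe sets, only the compared lines, a replicate block, a trended and robust variance, other fold minimums and each array left out. Of each pathway list, up to 4 called genes of KO versus WT and up to 2 of each other comparison were to be named, or 2 where none was called. Other list genes named were chosen after their values were seen. The genes and lists were chosen with earlier results of these data known. The number of arrays limits the precision. Plots used matplotlib 3.10.9.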

Additional observations from a re-analysis of the deposited data

How the results depend on the processing

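The count of 2 genes that fell between WT and KO rests on values at the 2-fold limit. It was 0 with quantile normalization, 0 with median centring and 1 with the mean of a gene's probe sets, and 6 without a fold minimum. With single arrays left out it ran from 1 to 2. The count of 3 probe sets was 1 with quantile normalization, 1 with median centring and 10 without a fold minimum, and ran from 2 to 3 over left-out arrays. Without a fold minimum 3 genes and 6 probe sets passed between Het and WT, and 4 and 5 between KO and Het. At 1.5-fold 3 genes and 4 probe sets passed between KO and Het. The 16 alternatives for single genes, left-out arrays included, read each gene at its most abundant probe set or as its probe-set mean. Under all 16 the sign of the Sox9, Sox5, Sox6, Acan, Matn2 and Matn4 differences between KO and WT was the same. Other probe sets of Sox5 and Matn2 did not all have that sign. The replicate block left the counts at 2 genes and 3 probe sets between KO and WT. Deviations of same-numbered arrays correlated at -0.15 to 0.30, and those of different numbers at -0.23 to 0.21. These overlapping ranges do not settle whether same-numbered arrays share more than the number. Low values limit Hapln1 and Matn1, and 1 line of each genotype limits every comparison.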
